A study of Mus musculus with 24 samples.

Results

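Matrix metalloproteinases (symbols Mmp), ADAMTS proteases (Adamts), the ADAMTS-like proteins (Adamtsl) and the tissue inhibitors of metalloproteinases (Timp) were described in mouse thoracic aorta. Members were taken from the gene table by symbol, as Mmp, Adamts, Adamtsl or Timp followed by a number, and 49 of 25941 genes matched. Of these, 36 had a mean of at least 10 counts over the 24 libraries: 12 Mmp genes, 15 Adamts genes, 5 Adamtsl genes and 4 Timp genes. All 36 passed the low-count filter and were among the 14451 genes tested. The other 13 (Mmp7, Mmp8, Mmp10, Mmp12, Mmp13, Mmp20, Mmp21, Mmp24, Mmp25, Adamts13, Adamts16, Adamts18 and Adamts19) fell below that minimum, and none of them was tested. Mmp7 and Mmp20 were at 0 counts in every library.

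The series is bulk polyA RNA-seq of whole thoracic aorta from male wild-type C57BL/6 mice, 10 to 12 weeks old. There were 3 groups of 8 libraries. One group ate chow that delivered celecoxib at 100 mg/kg/day, one ate chow with rofecoxib at 50 mg/kg/day, and the control group ate chow without a drug, each for 3 weeks. Aortas were taken at zeitgeber time 11, in hours after lights on. Celecoxib and rofecoxib are both inhibitors selective for cyclooxygenase-2, the inducible prostaglandin-forming enzyme, and their doses differed. The labels call the 8 libraries of a group biological replicates but name no animal, so the p-values measure the spread between these samples.

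In the vessel wall, smooth muscle cells and adventitial fibroblasts lay down collagen, elastic fibres and large proteoglycans, and secreted or membrane-bound zinc proteases cut them. Matrix metalloproteinases are made as inactive precursors that other proteases cut into active enzymes, and TIMPs bind the active site and block it. ADAMTS proteases include the versican and aggrecan cutters, the procollagen N-proteinases and enzymes that act on fibrillin and cartilage oligomeric matrix protein. The ADAMTS-like proteins share the accessory domains without the catalytic domain and sit on fibrillin microfibrils.

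Library totals ran from 21652432 to 21687906 counts, and the 36 members held 0.415% to 0.556% of them. Levels are TMM-scaled CPM, a read count relative to the size of its library. Of the 10 smooth muscle markers, 10 were present in the table with a mean of at least 10 counts, as were the 12 fibroblast and adventitia markers and the 10 endothelial markers. Neutrophil markers were almost absent, with 8 of 10 below that minimum, and so were all 4 mesothelial markers. Control 6 had a brown adipocyte marker sum of 1586 CPM against 149 to 505 in the other controls. Rofecoxib 2 had a cardiac muscle marker sum of 449 CPM against 17.4 to 31.8 in the other rofecoxib libraries. Both libraries were kept, and calls lost without them are given beside the results. In bulk tissue, fewer cells of a type and less RNA per cell cannot be told apart.

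Per kilobase of the longest annotated transcript, 2 inhibitors, Timp2 and Timp3, were the most abundant members in control aorta. The 4 Timp genes made up 42.2% of the summed CPM per kb of the 36 members, the 15 Adamts genes 27.4%, the 12 Mmp genes 21.9% and the 5 Adamtsl genes 8.50%. Within the Timp share, Timp1 (23.2 CPM per kb) ranked 12 and Timp4 (5.93) ranked 19 of the 36. The shares and the order depend on the lengths used, such as 5496 bases for Timp4. Which transcript forms were expressed was not tested. Timp2 stood at 296 ± 25.6 CPM per kb (SD, n = 8) and Timp3, the inhibitor that is held in the matrix, at 199.5 ± 20.0. Timp2 did not overlap Timp3 in control libraries, at 249 to 323 against 155 to 218 CPM per kb. Adamts1, a versican-cutting protease, was the most abundant protease at 142 ± 57.1 CPM per kb, and its libraries spanned 67.9 to 215, which reaches into the range of Timp3. Mmp23, a membrane-tethered metalloproteinase, followed at 101 ± 5.20 and Adamts10, a protease bound to fibrillin microfibrils, at 98.1 ± 8.59 CPM per kb, and their ranges overlapped. Adamtsl5 reached 62.1 ± 5.12, the gelatinase Mmp2 58.6 ± 8.06, the stromelysin Mmp3 45.3 ± 8.37 and the procollagen N-proteinase Adamts2 43.0 CPM per kb (32.7 to 49.0 over the 8 libraries). The other gelatinase, Mmp9, stood at 0.744 ± 0.188 CPM per kb. At the foot of the order were Adamts12, Adamts4, Adamts17 and Adamts20, between 0.257 and 0.0838 CPM per kb, so the members spanned 3533-fold.

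**Figure D1:**
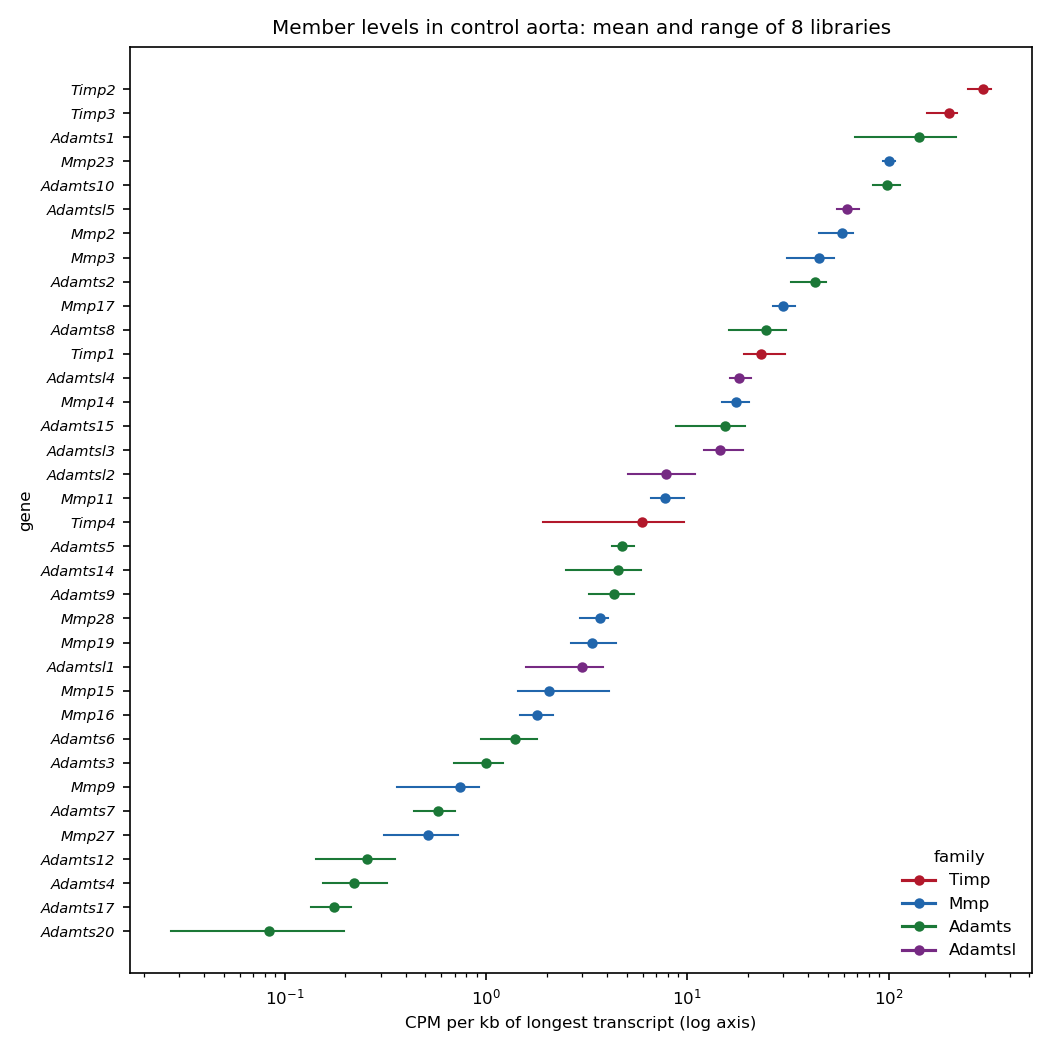
Level of each of the 36 members in control aorta, in CPM per kb of the longest transcript on a log axis; points are means and lines the range of 8 libraries, coloured by family. Timp2 and Timp3 lead at 296 and 199.5, Adamts1 has a wide range of 67.9 to 215, and Adamts20 is lowest at 0.0838.

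The sequences upstream of 4 members are shown because these genes carry the results below: Adamtsl2 and Timp1 fell with rofecoxib, Adamts1 was the most abundant protease and Mmp3 differed between the drugs. Each is the 250 bases before the annotated start, 5′ to 3′ on the gene's strand, from RefSeq on GRCm38.p6. Capitals mark the AP-1 motif TGANTCA, the GC box GGGCGG and the TATA motif TATAAA, searched on both strands. The windows are chr2:27079129-27079378 on the plus strand for Adamtsl2, chrX:20869916-20870165 on the plus strand for Timp1, chr16:85803114-85803363 on the minus strand for Adamts1 and chr9:7445572-7445821 on the plus strand for Mmp3.
Adamtsl2: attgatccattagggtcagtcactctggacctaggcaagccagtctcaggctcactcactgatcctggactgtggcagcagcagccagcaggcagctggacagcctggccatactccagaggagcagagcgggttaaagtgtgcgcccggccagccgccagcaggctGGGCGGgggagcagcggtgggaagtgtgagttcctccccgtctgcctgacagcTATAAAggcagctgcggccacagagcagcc
Timp1: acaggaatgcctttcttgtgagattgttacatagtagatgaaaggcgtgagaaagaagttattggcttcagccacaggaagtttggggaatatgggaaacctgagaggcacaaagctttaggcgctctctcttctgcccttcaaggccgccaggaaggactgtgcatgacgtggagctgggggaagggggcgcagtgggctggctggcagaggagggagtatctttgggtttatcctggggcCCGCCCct
Adamts1: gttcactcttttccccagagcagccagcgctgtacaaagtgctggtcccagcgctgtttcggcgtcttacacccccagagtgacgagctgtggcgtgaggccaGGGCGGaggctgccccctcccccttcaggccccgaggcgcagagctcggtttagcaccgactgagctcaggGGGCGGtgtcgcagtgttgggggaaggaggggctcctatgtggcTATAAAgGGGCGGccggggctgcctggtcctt
Mmp3: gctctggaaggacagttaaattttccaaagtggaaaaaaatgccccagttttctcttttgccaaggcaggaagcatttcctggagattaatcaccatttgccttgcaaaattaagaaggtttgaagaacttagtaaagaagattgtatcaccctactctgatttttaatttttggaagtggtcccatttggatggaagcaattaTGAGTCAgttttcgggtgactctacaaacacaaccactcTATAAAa
Among the 23 members found in that table, only Mmp3 held the AP-1 motif, which 6.75% of 32851 mouse promoter windows of this length held. A GC box was present in 17 of the 23, against 32.7% of all windows, and the TATA motif in 3 (Adamtsl2, Adamts1 and Mmp3), against 12.4%. Mmp3 and Adamts1 differ most among the 4 shown: Mmp3 has AP-1 and TATA motifs and no GC box in a window of 37.6% GC, and Adamts1 has 3 GC boxes around a TATA motif in a window of 65.6% GC. These are matches of letters in a window.

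With rofecoxib, 7 members were lower than in control aorta and 1 was higher. The lower ones were the ADAMTS-like proteins Adamtsl2, Adamtsl4 and Adamtsl5, the proteases Adamts2, Adamts15 and Mmp19, and the inhibitor Timp1, with log2 fold changes from -0.28 to -0.76. The higher one was Adamts6, by 42.0%. Calls rest on edgeR's quasi-likelihood test with an adjusted p under 0.05 (Benjamini-Hochberg over 14451 genes). Over all genes tested in this comparison, 2.87% were called lower and 2.43% higher. The median log2 fold change of the 36 members was -0.13, with 25 negative and 11 positive, and that of all genes tested was -2.1e-04. At an unadjusted p under 0.05 stood 17 of the 36 members, beside 3916 of all 14451 genes tested.

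Among the ADAMTS-like proteins, 3 of 5 fell with rofecoxib. Adamtsl2 (ENSMUSG00000036040, chr2:26934697-26964703 in mm9), which binds fibrillin and the latent TGF-beta binding protein LTBP1, had a lowest, median and highest level of 30.4, 45.5 and 64.8 CPM in control libraries, 38.5, 57.4 and 80.1 with celecoxib and 18.8, 28.3 and 33.2 with rofecoxib. Of the 8 rofecoxib libraries, 5 lay below the lowest control, and the groups overlapped through control 6 alone. The log2 fold change was -0.76 ± 0.16 (SE, n = 8 and 8, edgeR adjusted p = 0.0147). Adamtsl4 (ENSMUSG00000015850, chr3:95479922-95492042 in mm9), a fibrillin-1 microfibril protein, had 65.9, 69.9 and 84.0 CPM in control and 45.8, 62.7 and 66.5 with rofecoxib. Of the rofecoxib libraries, 6 were below every control, and the log2 fold change was -0.28 ± 0.07 (edgeR adjusted p = 0.0319). Adamtsl5 (ENSMUSG00000043822, chr10:79801653-79811359 in mm9), the most abundant of the 5 per kilobase, had 229, 254 and 292 CPM in control and 162, 213 and 232 with rofecoxib, a log2 fold change of -0.31 ± 0.08 (edgeR adjusted p = 0.0267) with 6 of 8 libraries below every control. Adamtsl1 at 0.33 ± 0.20 and Adamtsl3 at -0.07 ± 0.09 did not pass the test.

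Among the 15 ADAMTS proteases, 2 fell and 1 rose. Adamts2 (ENSMUSG00000036545, chr11:50415384-50621277 in mm9), the main procollagen N-proteinase for fibrillar collagen, had 237, 327 and 356 CPM in control libraries, 242, 309 and 357 with celecoxib and 215, 242 and 265 with rofecoxib. All 8 rofecoxib libraries were below the control mean and 3 were below the lowest control, with a log2 fold change of -0.37 ± 0.08 (edgeR adjusted p = 0.0164). The 2 other procollagen N-proteinases, Adamts14 (-0.23 ± 0.16) and Adamts3 (-0.11 ± 0.10), did not pass the test. Adamts15 (ENSMUSG00000033453, chr9:30706538-30730239 in mm9), a versican-cutting protease, had 52.0, 105 and 115 CPM in control and 49.9, 61.6 and 76.5 with rofecoxib. Controls 2, 3 and 8, at 52.0, 64.6 and 69.9 CPM, lay within the rofecoxib range, and the other 5 controls at 98.4 to 115 CPM lay above it. The log2 fold change was -0.55 ± 0.16 (edgeR adjusted p = 0.0446). Its neighbour Adamts8, 19705 bases away in mm9, was lowest in the same 3 controls, at 70.6, 58.5 and 78.3 CPM, and its log2 fold change of -0.22 ± 0.15 did not pass.

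Adamts6 (ENSMUSG00000046169, chr13:105077751-105285045 in mm9), which is related to Adamts10, was the member that rose. It had 7.27, 10.3 and 13.8 CPM in control libraries, 5.87, 9.06 and 12.1 with celecoxib and 12.4, 14.1 and 19.9 with rofecoxib. All 8 rofecoxib libraries were above the control mean and 4 were above the highest control, with a log2 fold change of 0.51 ± 0.15 (edgeR adjusted p = 0.0454). Adamts1 was also higher in all 8 rofecoxib libraries than the control mean but did not pass the test. Its levels were 332, 642 and 1051 CPM in control, 382, 555 and 952 with celecoxib and 796, 905 and 1346 with rofecoxib. Controls 1, 2 and 4, at 924, 1051 and 1005 CPM, lay in the rofecoxib range and the other 5 were at 332 to 758 CPM. By replicate number, controls 1 to 4 were at 758 to 1051 CPM and controls 5 to 8 at 332 to 527. Celecoxib 1 to 3 were at 711 to 952 CPM and celecoxib 4 to 8 at 382 to 555. Rofecoxib 1 to 4 were at 899 to 1346 CPM and rofecoxib 5 to 8 at 796 to 1031. An effect of such runs of numbers was not tested. The log2 fold change of Adamts1 was 0.48 ± 0.22 (edgeR adjusted p = 0.158). Adamts5, the aggrecan-cutting protease 54652 bases from Adamts1 in mm9, had a log2 fold change of 0.06 ± 0.08 and a 95% interval of -0.11 to 0.23.

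Of the 12 matrix metalloproteinases, 1 fell with rofecoxib. Mmp19 (ENSMUSG00000025355, chr10:128227807-128238082 in mm9), a secreted metalloproteinase, had 8.98, 11.7 and 15.1 CPM in control libraries, 6.4804, 10.9 and 13.0 with celecoxib and 5.70, 8.13 and 9.97 with rofecoxib. Of the rofecoxib libraries, 6 lay below every control, and the log2 fold change was -0.54 ± 0.14 (edgeR adjusted p = 0.0311). Mmp3, which cuts proteoglycans and activates other metalloproteinases, had 56.2, 88.9 and 95.9 CPM in control, 55.0, 73.0 and 111 with celecoxib and 38.3, 57.8 and 69.3 with rofecoxib. Its log2 fold change of -0.49 ± 0.15 missed the threshold (edgeR adjusted p = 0.0526). Mmp2, the gelatinase, had 139, 192 and 205 CPM in control and 115, 158 and 162 with rofecoxib, with a log2 fold change of -0.28 ± 0.10 (edgeR adjusted p = 0.0783) and all 8 rofecoxib libraries below the control mean. Mmp14, the membrane protease that activates the Mmp2 precursor, had a log2 fold change of 0.00 ± 0.06 and a 95% interval of -0.11 to 0.12. Further members at an unadjusted p under 0.05 that were not called were Mmp23 (-0.14 ± 0.05), Mmp15 (-0.54 ± 0.21), Mmp28 (-0.20 ± 0.09), Adamts7 (-0.38 ± 0.14) and Adamts10 (-0.14 ± 0.06).

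Of the 4 inhibitors, 1 fell. Timp1 (ENSMUSG00000001131, chrX:20447090-20452063 in mm9), the inducible member of the family, had 16.9, 19.4 and 27.0 CPM in control libraries, 15.6, 19.5 and 21.8 with celecoxib and 10.7, 15.8 and 18.6 with rofecoxib. Of the rofecoxib libraries, 7 lay below the lowest control, and the log2 fold change was -0.41 ± 0.10 (edgeR adjusted p = 0.0249). Timp2, the partner of Mmp14 in activating Mmp2, had 923, 1139 and 1197 CPM in control, 995, 1140.1 and 1256 with celecoxib and 883, 1029.7 and 1099.96 with rofecoxib, and its log2 fold change with rofecoxib of -0.13 ± 0.06 was not called (edgeR adjusted p = 0.161). Timp3 had 733, 959 and 1028 CPM in control, 754, 904 and 966 with celecoxib and 857, 935 and 959.8 with rofecoxib. Its log2 fold change with rofecoxib was -0.03 ± 0.06 with a 95% interval of -0.15 to 0.09. Timp4 had 10.6, 32.2 and 52.9 CPM in control and 20.4, 33.3 and 54.8 with rofecoxib, and its interval of -0.47 to 0.50 left a wide range of differences possible.

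**Figure D2:**
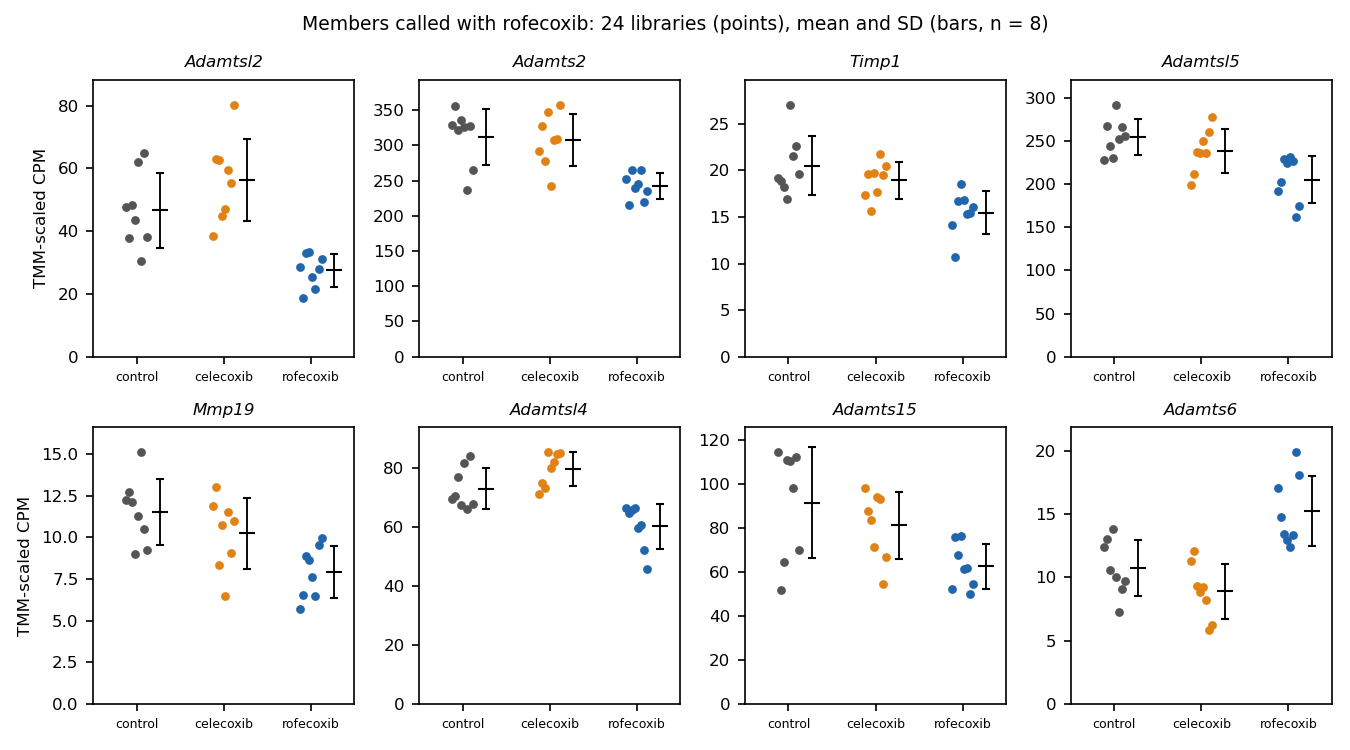
TMM-scaled CPM of the 8 members called with rofecoxib in all 24 libraries (points) with mean and SD (bars, n = 8 per group), by group. Rofecoxib libraries sit low for 7 genes, down to 18.8 to 33.2 CPM for Adamtsl2, and high for Adamts6 at 12.4 to 19.9 CPM, and every control group overlaps its rofecoxib group.

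Only Adamtsl2 and Adamts2 were called in all 24 fits that each left out 1 library. Without control 5 or control 7, 2 members remained called in each case, and without rofecoxib 7 or rofecoxib 8, 4. Leaving out control 5 or control 7 ended the call of Timp1 (edgeR adjusted p = 0.0599 and 0.0606, within 0.00384 to 0.0670 over all alternatives run). Adamtsl4 and Adamtsl5 were lost without control 5, control 7, rofecoxib 7 or rofecoxib 8, and Mmp19 without control 5, 6 or 7 or rofecoxib 2. Adamts15 was lost in 11 and Adamts6 in 14 of the 24 fits. Without both control 6 and rofecoxib 2, Adamtsl2, Adamts2 and Adamtsl4 were called. DESeq2 called all 8.

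The libraries also differed in how expression followed transcript GC content. The slope of log2 CPM on GC fraction averaged 0.31 ± 0.83 (SD, n = 8) in control, 0.77 ± 0.90 with celecoxib and -1.09 ± 0.96 with rofecoxib libraries. The 7 members that fell had 49.0% to 60.1% GC in their longest transcript (median 54.2%), the 28 not called 42.2% to 59.6% (median 53.8%), and Adamts6 43.0%. With a per-library GC trend removed, genes called with rofecoxib over the whole table went from 766 to 148 (0.512% in each direction), and 2 members were called, Adamtsl2 at -0.70 ± 0.16 and Mmp19 at -0.55 ± 0.13 (edgeR adjusted p = 0.0340 for each). Among these 8, the log2 fold change moved most in Adamtsl4, the most GC-rich of the lower genes, from -0.28 to -0.12. That of Timp1 went from -0.41 to -0.35 (edgeR adjusted p = 0.0582). The median log2 fold change of the members was then -0.07. What part GC composition had in the other 6 calls was not tested.

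**Figure D3:**
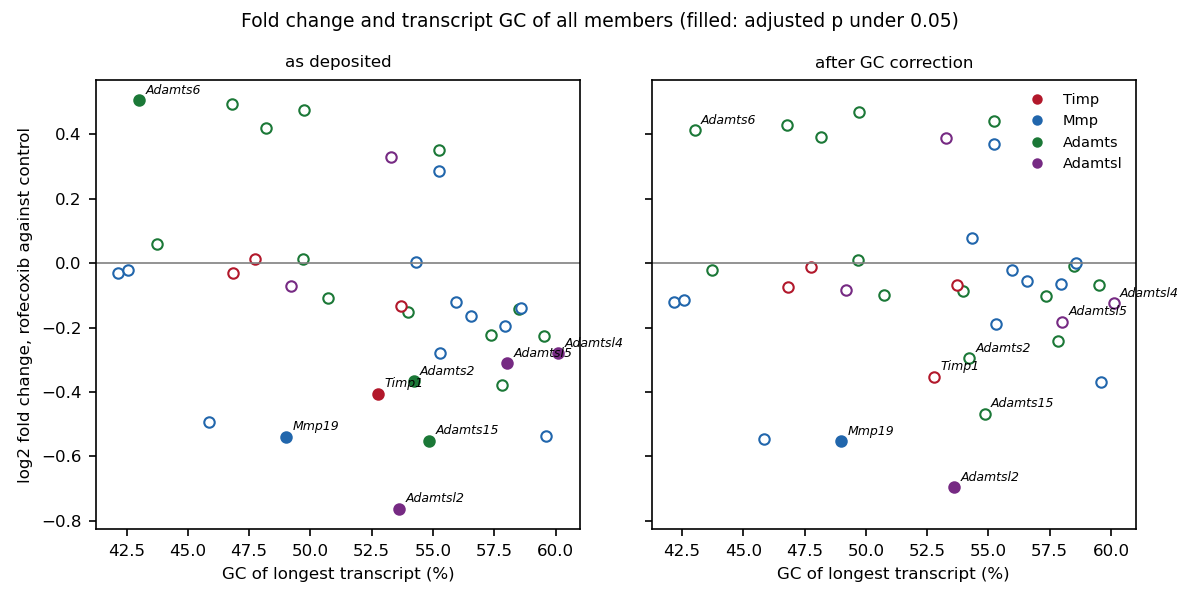
Log2 fold change of the 36 members, rofecoxib against control, against the GC content of the longest transcript, as deposited (left) and after removing a GC trend per library (right); filled points have an adjusted p under 0.05 and the 8 members called as deposited are named in both panels. Adamtsl2 and Mmp19 stay filled on the right, and Adamtsl4 moves from -0.28 to -0.12.

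With celecoxib, no member passed the test against control (edgeR), where 0.913% of all genes tested were called higher and 0.498% lower, with 132 and 72 genes. With library totals in place of the scaling factors that split was 100 and 83. At an unadjusted p under 0.05 stood 5 of the 36 members, a smaller share than the 2504 of all 14451 genes tested. DESeq2 called 2 of these 5 members, Adamtsl3 and Mmp14. The median log2 fold change of the 36 members was 0.02, against -0.01 over all genes tested. Adamtsl3, an ADAMTS-like matrix protein, had 87.4, 104 and 137 CPM in control libraries and 67.5, 80.9 and 99.5 with celecoxib. Its 8 celecoxib libraries were below the control mean and 5 were below every control, with a log2 fold change of -0.36 ± 0.10 (edgeR adjusted p = 0.0585). Mmp14 had 48.2, 55.2 and 65.8 CPM in control and 62.9, 65.6 and 68.6 with celecoxib. All 8 celecoxib libraries were above the control mean, at 0.21 ± 0.06 on the log2 scale (edgeR adjusted p = 0.0618). The other 3 were Mmp16 at -0.27 ± 0.08, Adamts14 at 0.42 ± 0.16 and Adamts7 at 0.35 ± 0.13. For the 4 inhibitors the celecoxib log2 fold changes were -0.11 ± 0.10 for Timp1, 0.03 ± 0.06 for Timp2, -0.09 ± 0.06 for Timp3 and 0.31 ± 0.23 for Timp4.

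Both comparisons with control share the 8 control libraries, so the drugs were also compared directly, at doses that differed (100 and 50 mg/kg/day). Here 17 of 36 members were called, 13 higher and 4 lower with celecoxib than with rofecoxib, where 11.5% of all genes tested were higher and 11.2% lower. The median log2 fold change of the members was 0.20, against -0.003 over all genes tested. This comparison shares the rofecoxib libraries with the one above. The higher genes held 3 of 5 ADAMTS-like genes (Adamtsl2, Adamtsl4 and Adamtsl5), 5 of 12 metalloproteinases (Mmp2, Mmp3, Mmp14, Mmp23 and Mmp28), 3 of 15 ADAMTS proteases (Adamts2, Adamts7 and Adamts14) and 2 of 4 inhibitors (Timp1 and Timp2). The lower genes were Adamts1, Adamts6, Adamtsl3 and Mmp16.

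The widest difference was in Adamtsl2, where every celecoxib library (38.5 to 80.1 CPM) was above every rofecoxib library (18.8 to 33.2 CPM), at a log2 fold change of 1.04 ± 0.16 (edgeR adjusted p = 0.00106). Adamtsl4 also showed no overlap, at 71.0 to 85.2 against 45.8 to 66.5 CPM, with a log2 fold change of 0.40 ± 0.07 (edgeR adjusted p = 0.00130). Adamts6 ran the other way and did not overlap either, at 5.87 to 12.1 CPM with celecoxib against 12.4 to 19.9 with rofecoxib. Its log2 fold change was -0.78 ± 0.15 (edgeR adjusted p = 0.00161). How many of all genes tested lacked overlap between the drugs was not counted. Adamts7, a protease that cuts cartilage oligomeric matrix protein, had 2.60, 4.05 and 5.24 CPM with celecoxib and 1.77, 2.39 and 2.85 with rofecoxib, with 7 of 8 celecoxib libraries above every rofecoxib library and a log2 fold change of 0.73 ± 0.14 (edgeR adjusted p = 0.00161). Control libraries had 2.35, 3.10 and 3.77 CPM.

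The procollagen N-proteinases Adamts2 and Adamts14 were both higher with celecoxib than with rofecoxib, at 0.35 ± 0.08 and 0.65 ± 0.16 on the log2 scale. Adamts14 had 22.3, 30.4 and 42.7 CPM with celecoxib, 14.2, 19.8 and 27.6 with rofecoxib and 12.9, 25.1 and 30.7 in control, so control spanned the whole rofecoxib range. Of the metalloproteinases, the log2 fold changes were 0.44 ± 0.15 for Mmp3, 0.33 ± 0.10 for Mmp2, 0.27 ± 0.09 for Mmp28, 0.21 ± 0.06 for Mmp14 and 0.20 ± 0.05 for Mmp23, and -0.24 ± 0.08 for Mmp16. Mmp23 had 135, 152 and 168 CPM with celecoxib, 117, 131 and 148 with rofecoxib and 134, 147 and 154 in control. Mmp28 had 11.8, 12.7 and 17.1 CPM with celecoxib, 9.23, 10.6 and 15.2 with rofecoxib and 10.1, 12.9 and 14.0 in control. Mmp16, a membrane-bound metalloproteinase, had 6.44, 7.51 and 8.22 CPM with celecoxib, 6.95, 9.22 and 9.34 with rofecoxib and 7.41, 9.04 and 10.8 in control, so the celecoxib libraries were the low ones. Adamtsl3 showed the same order, with 89.3, 99.4 and 116 CPM with rofecoxib and a difference between drugs of -0.28 ± 0.09 (edgeR adjusted p = 0.0343). Adamts1 was lower with celecoxib than with rofecoxib, at a log2 fold change of -0.62 ± 0.22 (edgeR adjusted p = 0.0408), and all 8 celecoxib libraries were below the rofecoxib mean. Timp1 and Timp2 differed by 0.29 ± 0.10 and 0.17 ± 0.06.

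After GC correction, 4 of the 17 were called between the drugs: Adamtsl2 (0.96 ± 0.16), Adamts7 (0.56 ± 0.12), Mmp3 (0.51 ± 0.15) and Adamts6 (-0.66 ± 0.13). Mmp23 went from 0.20 to 0.02. Called in all 24 fits that left out 1 library were Adamtsl2, Adamtsl4, Adamts7, Adamts6, Adamts2, Adamts14, Mmp23 and Mmp14. The count of 17 fell to 9 without celecoxib 8 or rofecoxib 2, to 10 without celecoxib 4, celecoxib 7, rofecoxib 7 or rofecoxib 8 and to 11 without rofecoxib 1, and Timp2 was the least stable, lost in 20 of 24 fits. Without both control 6 and rofecoxib 2, 13 were called: Adamtsl3, Adamtsl5, Mmp3, Timp1 and Timp2 were lost and Mmp15 was gained.

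**Figure D4:**
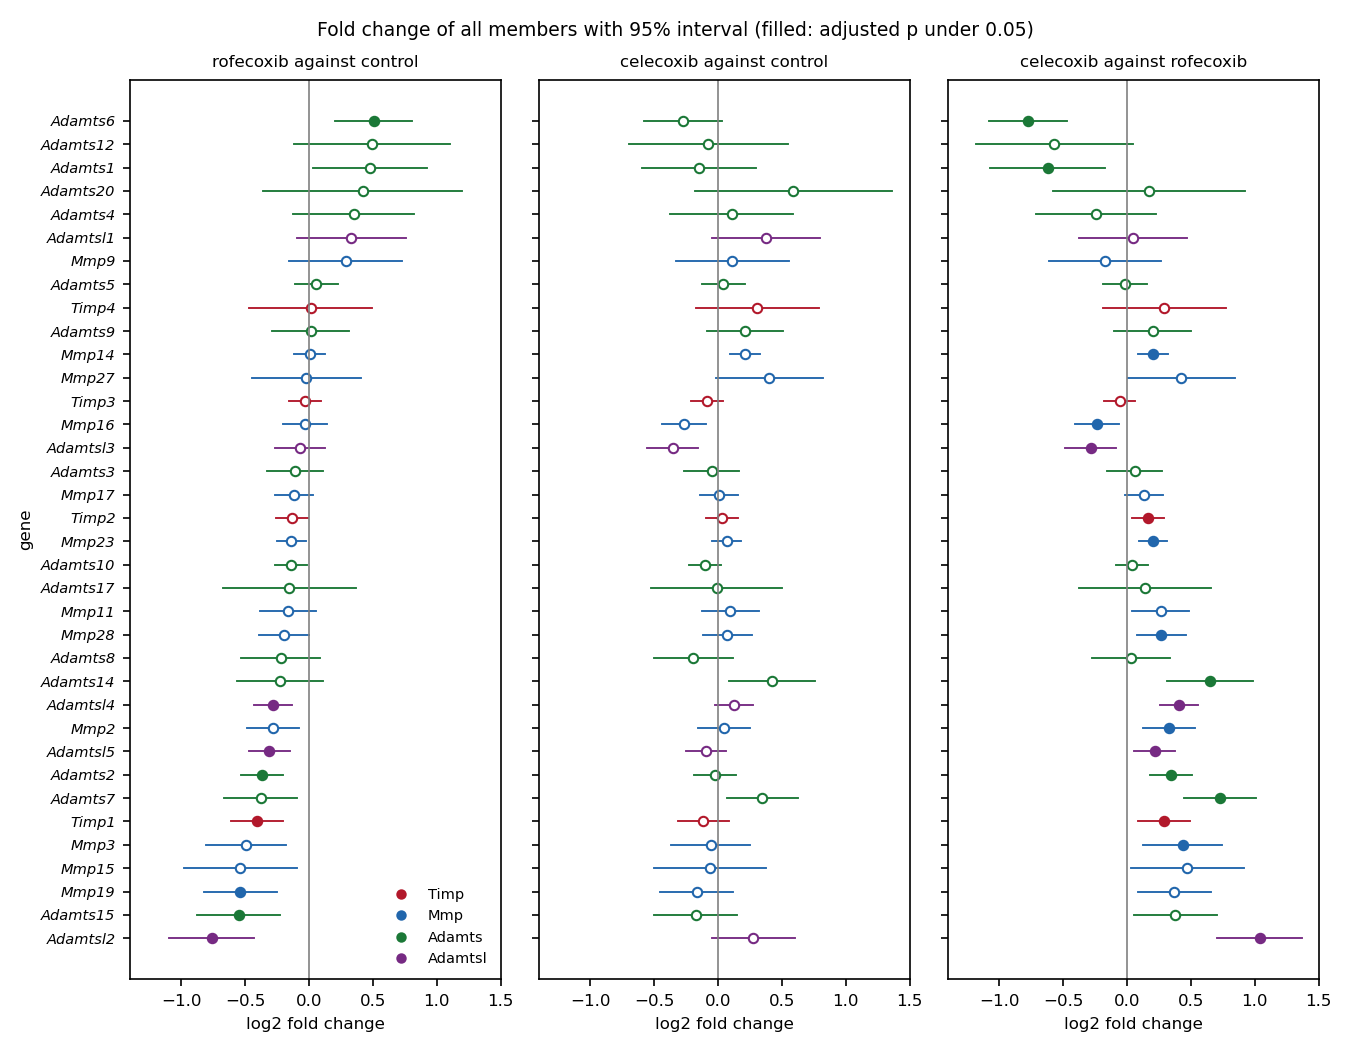
Log2 fold change of the 36 members with 95% interval in the 3 comparisons, ordered by the rofecoxib fold change and coloured by family; filled points have an adjusted p under 0.05. With rofecoxib 8 points are filled, with celecoxib none, and between the drugs 17.

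Some members that were detected at moderate level did not pass in any comparison. Mmp17, a membrane-anchored metalloproteinase, had 172, 187 and 221 CPM in control, 158, 193 and 221 with celecoxib and 143, 181 and 197 with rofecoxib. Adamts10 had 346, 399.6 and 469 CPM in control, 357, 371 and 402 with celecoxib and 315, 367 and 409.6 with rofecoxib. Adamts5 had 45.7, 50.2 and 58.8 CPM in control, 40.3, 53.9 and 68.3 with celecoxib and 47.6, 53.4 and 58.2 with rofecoxib. Adamts9, a versican-cutting protease, had 26.0, 36.01 and 43.4 CPM in control and 22.8, 35.3 and 55.2 with rofecoxib. Mmp11 had 15.1, 17.3 and 22.1 CPM in control and 12.5, 15.0 and 20.5 with rofecoxib. Mmp9, the gelatinase B of leukocytes and injured vessels, stayed at 1.15 to 2.93 CPM in control, 1.20 to 5.04 with celecoxib and 1.77 to 3.64 with rofecoxib. For the 5 lowest members (Adamts12, Adamts17, Adamts4, Mmp27 and Adamts20), the control means were 0.577 to 2.20 CPM and the 95% intervals of the drug effects were wide, such as -0.36 to 1.20 for Adamts20 with rofecoxib.

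Genes that act on or beside these proteases were counted in 5 lists. Over all genes tested, 2.87% were called lower with rofecoxib and 0.913% higher with celecoxib, each against control. Between the drugs, 11.5% were higher with celecoxib. In the list of activators and inhibitors other than TIMPs, 4 of 19 genes tested fell with rofecoxib (edgeR): Pcolce, a helper of procollagen C-proteinase (-0.60 ± 0.09), Pcsk6, a proprotein convertase (-0.42 ± 0.09), Furin, a convertase that activates membrane metalloproteinases (-0.25 ± 0.06) and Bmp1, the procollagen C-proteinase (-0.22 ± 0.06). With celecoxib, Spock2, a secreted proteoglycan, was the 1 gene of that list called, at 0.49 ± 0.12, and between the drugs these 5 genes were higher with celecoxib. Reck, a membrane inhibitor of metalloproteinases, had -0.13 ± 0.06 with rofecoxib and was not called. Among 22 known ADAMTS substrates, 5 fell with rofecoxib: Fmod (-0.75 ± 0.16), Col1a1 (-0.65 ± 0.13), Pcolce, Comp (-0.42 ± 0.11) and Col1a2 (-0.35 ± 0.09). None was called with celecoxib (1 at an unadjusted p under 0.05, 0 by DESeq2), and these 5 were higher with celecoxib than with rofecoxib. The median log2 fold changes with rofecoxib were -0.14 in both lists, and Pcolce is in both. Col1a1 and Col1a2 are also in the list of fibroblast markers below, so the lists are not separate counts. Versican and aggrecan, the classical substrates of Adamts1 and Adamts15, had Vcan at -0.20 ± 0.09 and Acan at -0.36 ± 0.17 and were not called.

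In the plasminogen system, none of 8 genes was called against control by edgeR with either drug, with 4 at an unadjusted p under 0.05 for celecoxib and 1 for rofecoxib, and with 2 and 1 by DESeq2. Between the drugs 2 of the 8 were lower with celecoxib, and 1 after GC correction. Plgrkt, a plasminogen receptor listed under an older symbol, was lower by this test (-0.20 ± 0.05) and was not called after GC correction. Of 14 cathepsins and cystatins, Ctsz fell with rofecoxib (-0.16 ± 0.04). None was called with celecoxib by edgeR (2 at an unadjusted p under 0.05, 1 by DESeq2). Between the drugs Ctsa and Cst3 were higher with celecoxib and Ctsc was lower, 3 of 14 where 11.5% of all genes tested were higher and 11.2% lower. After GC correction edgeR called none of the 14 with rofecoxib (3 at an unadjusted p under 0.05) or between the drugs (2), and without control 6 and rofecoxib 2 the calls of Ctsz and Ctsa were lost. Of 10 membrane ADAMs, none was called against control by edgeR with either drug, with 2 at an unadjusted p under 0.05 in each case and 0 and 2 by DESeq2 for celecoxib and rofecoxib. Adam15 (0.29 ± 0.06) and Adam33 (0.22 ± 0.06) were higher with celecoxib than with rofecoxib. Adam33 was not called after GC correction. After GC correction, the rofecoxib calls were Pcolce and Fap among the activators and Pcolce and Fmod among the substrates, and between the drugs the calls of Pcsk6, Col1a2 and Comp were lost. Without control 6 and rofecoxib 2, the rofecoxib calls of Furin, Bmp1 and Comp were lost.

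With rofecoxib, some fibroblast and macrophage markers were called lower and some smooth muscle markers higher. Over all genes tested in that comparison, 2.87% were called lower and 2.43% higher. Of 12 fibroblast and adventitia markers, 4 fell with rofecoxib (Col1a1, Col1a2, Serpinf1 and Clec3b). The summed level of the 12 was 8003 to 12242 CPM in control (median 11178) and 8435 to 12233 with celecoxib (median 10697). With rofecoxib it was 6912 to 9187 CPM (median 8410.0), and no marker was at 0. Most of that sum came from Col1a1 and Col1a2, which are also among the substrates above. Their mean levels were 2390 and 4462 CPM in control and 1518 and 3495 with rofecoxib, so the sum mainly follows these 2 genes. After GC correction none of the 4 markers that fell was called and Cd34 was, with the list's median log2 fold change at -0.29 before and -0.31 after. Clec3b was also lost without control 6 and rofecoxib 2. Of 12 macrophage and monocyte markers, 3 fell with rofecoxib (C1qc, Cd14 and Fcer1g), with sums of 264 to 446 CPM in control, 199.9 to 422 with celecoxib and 153 to 316 with rofecoxib. By edgeR none of the 12 was called with rofecoxib after GC correction (7 at an unadjusted p under 0.05) or without control 6 and rofecoxib 2 (9), and DESeq2 called 7. Of 10 smooth muscle markers, 3 rose with each drug (Acta2, Tagln and Actg2), with sums of 35589 to 48837, 43613 to 53227 and 45194 to 54337 CPM. Without control 6 and rofecoxib 2, only Actg2 was called with celecoxib and only Tagln with rofecoxib, and Acta2 was also lost with rofecoxib after GC correction. Of 10 endothelial markers, none was called against control by edgeR or DESeq2, with 1 at an unadjusted p under 0.05 for celecoxib and 0 for rofecoxib. The part of these cell markers in the member results was not tested.

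Several members share their locus with another gene. In mm9, Timp1 lies inside Syn1, Timp3 inside Syn3 and Timp4 inside Syn2, with mean counts of 397 against 62.2, 19875 against 51.8 and 764 against 179.8. Adamts7, at 68.3 counts, overlaps Tbc1d2b at 3831, Mmp19, at 215, overlaps 1110012D08Rik at 424, and Mmp11, at 378.5, overlaps Chchd10 at 541. No source used here states whether the counting used strand, and reads in the shared stretches cannot be told apart. The cluster of 8 metalloproteinase genes at chr9:7272312-7699787 in mm9, which spans 427.5 kb, held 2 members above the count minimum, Mmp3 at a mean of 1574 counts and Mmp27 at 23.4.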

How the data were processed

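PolyA RNA of 24 thoracic aorta libraries was sequenced. Per the submitters' processing notes, the tools were CASAVA 1.8.2 and STAR 2.5.1b and the build was mm9. The authors deposited whole-number counts per gene in 1 table with Ensembl identifiers, symbols and mm9 coordinates. For the counting tool, annotation and strand use, nothing is stated in the sources used here. The totals (21652432 to 21687906 counts) lie so close together that some unstated step had made them nearly equal. Had that step scaled the counts, the spread assumed by edgeR would not hold.

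The deposited counts were tested with edgeR 4.0.16 in R 4.3.3: filterByExpr kept 14451 genes, TMM factors scaled the libraries (0.959 to 1.03), and a robust quasi-likelihood model with 1 mean per group was fitted to all 24 libraries (21 residual degrees of freedom). Benjamini-Hochberg adjustment ran over all genes tested, with a call at an adjusted p under 0.05, whatever the fold. Each SE came from the log2 fold change and its quasi-likelihood F. The precision is that of 8 libraries a group. The procedure was run on simulated counts with the same spread setting for every gene and no GC trend. That run does not cover the GC differences between these libraries.

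Any member could be named. Values by library were given for members called in a comparison, for the Timp genes and for the 4 most abundant members per family, and up to 4 called genes were named per list of other matrix genes. The members and lists were chosen with earlier results of these data known. Transcript length and GC came from the longest GENCODE M21 transcript (14075 of 14451 genes tested, 97.4%, and 36 of 36 members). The GC correction removed, per library, a smooth trend of log2 CPM on GC as an offset. Alternatives were DESeq2 1.42.0, other scaling and filters, 2 groups only, the replicate number as a block, GC correction, and leaving out libraries. Batches of library making were not analysed here, because no label gives the day of a library. The numbers that end the sample titles are lower in every drug library than in every control. No source used here states what they count. In the comparisons with control, an effect of that order cannot be told apart from the drugs. A further gene from the comparison lists is not reported here by name.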

Additional observations from a re-analysis of the deposited data

Results flagged for a closer look

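In 14 of the 108 member and group combinations looked at, 1 library lay far from the other 7. Independent normal values would pass the cutoff in about 1 in 20 combinations. These CPM were not log-transformed and the members share libraries, so the 14 cannot be set against that rate. Rofecoxib 2 was the far library 4 times and celecoxib 2 was 3 times. Rofecoxib 2 was high for Adamts1 (1346 CPM against 796 to 1031), Adamts8 (119 against 53.9 to 84.4), Adamts9 (55.2 against 22.8 to 38.1) and Timp4 (54.8 against 20.4 to 36.3). It is also the library with the high cardiac muscle marker sum, and the part of that in these values was not tested. Celecoxib 2 was high for Adamts4 (2.04 CPM against 0.748 to 1.20), Mmp9 (5.04 against 1.20 to 2.66) and Adamts12 (3.77 against 1.32 to 2.37). Control 6, the library with the high brown adipocyte marker sum, was low for Timp3 (733 CPM against 919 to 1028) and high for Mmp15 (21.0 against 7.43 to 12.2). Celecoxib 7 was high for Mmp15 (17.9 CPM against 6.73 to 11.02) and Adamts20 (1.803 against 0.417 to 1.07). Its brown adipocyte marker sum was 138 CPM. Control 6 and celecoxib 7 had the highest Schwann cell and nerve marker sums of their groups, at 636 and 694 CPM. The part of these marker sums in the member values was not tested. Mmp28 was low in control 4 (10.1 CPM against 12.2 to 14.0) and high in rofecoxib 5 (15.2 against 9.23 to 11.5). Mmp16 was low in rofecoxib 1 (6.95 CPM against 8.32 to 9.34).

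The effects of the 2 drugs against the shared controls differed, by the direct edgeR test of celecoxib against rofecoxib, for 17 members. Over all genes tested, 11.5% were higher and 11.2% lower with celecoxib. After GC correction, 4 of the 17 members were called, where 650 of all 14451 genes tested were higher and 549 lower with celecoxib. The log2 differences were 1.04 for Adamtsl2, 0.73 for Adamts7, 0.65 for Adamts14, 0.44 for Mmp3, 0.40 for Adamtsl4, 0.35 for Adamts2, 0.33 for Mmp2, 0.29 for Timp1, 0.27 for Mmp28, 0.22 for Adamtsl5, 0.21 for Mmp14, 0.20 for Mmp23 and 0.17 for Timp2. They were -0.78 for Adamts6, -0.62 for Adamts1, -0.28 for Adamtsl3 and -0.24 for Mmp16. The doses of the drugs differed.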

How the results depend on the processing

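Library totals or DESeq2 size factors in place of TMM, and a mean of at least 10 counts as the filter, kept every count of calls within 1.5 times. For celecoxib against control, the 204 genes called became 479 with DESeq2, 86 with no low-count filter and 88 with only the 2 groups fitted, and 42 to 312 leaving out 1 library. Its 0 members became 2 with DESeq2, 1 without control 6 and rofecoxib 2, and 0 to 1 leaving out 1 library. For rofecoxib against control, the 766 genes became 1493 with DESeq2, 294 with no filter, 461 with 2 groups, 148 with GC correction, 107 with GC correction and replicate block, 215 without control 6 and rofecoxib 2, and 170 to 1121 leaving out 1 library. Its 8 members became 5 with the replicate block, 2 with GC correction, 0 with both, 3 without control 6 and rofecoxib 2, and 2 to 9 leaving out 1 library. For celecoxib against rofecoxib, the 3275 genes became 1199 with GC correction, 1287 with GC correction and replicate block, and 2147 to 3739 leaving out 1 library, and the 17 members became 10 with no filter, 4 with GC correction, 4 with GC correction and replicate block, and 9 to 19 leaving out 1 library. The cause was not tested.

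Fold changes were followed for members at an unadjusted p under 0.05 in a comparison and for the others whose fold change is given, 58 in all, and 54 kept their direction under every alternative run. The other 4 were all for rofecoxib against control and none was called. Mmp23 went to 4.2e-04 with GC correction and 0.0011 with GC correction and replicate block, and Adamts5 to -0.0222 and -0.0208. Mmp14 went to -0.0020 with library totals, -3.0e-04 with no filter, -0.0050 with a mean of at least 10 counts and -0.0087 without control 6 and rofecoxib 2, and was -0.0242 to 0.0398 leaving out 1 library. Timp4 went to -0.0048 with the replicate block, -0.0114 with GC correction and -0.0313 with both, and was -0.126 to 0.150 leaving out 1 library. Pairing of samples by replicate number was not clear. Same-numbered libraries deviated together (r over 0.1) in 5, 3 and 2 of 8 pairs for celecoxib against control, rofecoxib against control and celecoxib against rofecoxib. In the same order, only 1, 2 and 1 of 8 correlated best with their own number. The check compares single libraries, so it cannot exclude an effect shared by runs of replicate numbers. With the replicate block, 187, 653 and 3193 genes and 0, 5 and 15 members were called. Members near 1 CPM had wide intervals, and so did some at higher levels, such as Timp4 (-0.47 to 0.50 with rofecoxib).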

Other observations

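Further marker lists held no called gene in most comparisons. By edgeR against control, none of 3 neutrophil, 3 lymphocyte, 4 mast cell, 8 white adipocyte, 7 brown adipocyte or 6 Schwann cell markers tested was called with either drug, and none by DESeq2. At an unadjusted p under 0.05 stood 3 mast cell and 3 brown adipocyte markers with celecoxib, and 1 neutrophil and 3 brown adipocyte markers with rofecoxib. Without control 6 and rofecoxib 2, no brown adipocyte marker reached that level with either drug, and the list's median log2 fold change went from -0.76 to -0.28 with celecoxib and from -0.58 to -0.07 with rofecoxib. Of mast cell markers, 2 reached it with celecoxib. Of 4 skeletal muscle markers, Tnnt3 rose with celecoxib, and of 5 cardiac muscle markers, Actc1 rose with rofecoxib. Without control 6 and rofecoxib 2, neither muscle list held a called gene (edgeR, with 2 skeletal and 2 cardiac markers at an unadjusted p under 0.05 for celecoxib, and 1 and 1 for rofecoxib).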
